A study of Mus musculus with 4 samples.

Results

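Accessible chromatin was examined at the loci of 7 cytokine genes in mouse regulatory T cells: Il4, Il13 and Il5 of the type 2 response, Ifng of the type 1 response, Il17a and Il17f of the type 17 response, and Il10, a suppressive cytokine. The members were the regions of open chromatin that overlap 4 fixed windows of the mm9 genome build, named for these genes: chromosome 11 from 53400000 to 53550000 (Il4, Il13, Rad50 and Il5), chromosome 10 from 117830000 to 117930000 (Ifng), chromosome 1 from 20700000 to 20800000 (Il17a and Il17f) and chromosome 1 from 132890000 to 132950000 (Il10). They held 7, 18, 3 and 14 regions, 42 in all of the 84476 regions in the files. The files name no genes and no mm9 annotation was used here, so the windows were not checked against gene positions and no region could be assigned to a promoter, an exon or a known enhancer.

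The assay was ATAC-seq, in which a transposase inserts sequencing adapters into open DNA, so that a region with more reads was more accessible. The cells came from spleen and lymph nodes of male mice of the NOD strain, which develops autoimmune diabetes, aged 8 to 10 weeks, and were sorted as living CD4+ TCRβ+ cells with CD25 staining in the top 50% of the CD25-high gate. The 2 Flicr WT libraries carried an intact Flicr gene and the 2 Flicr KO libraries a knocked-out one, and all 4 shared the NOD background and the sort. Flicr is a long noncoding RNA gene beside Foxp3, and the labels do not say how it was knocked out; without mm9 gene positions the knockout itself was not checked in these libraries. A sort on CD25 without Foxp3 can also hold activated conventional T cells, and the share of such cells was not measured here. Nothing in the labels ties the replicates to separate mice, so p-values cover the spread between these libraries, which may be technical.

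Helper T cells take on fates that are marked by the cytokines they make, and the loci of these genes open and close as a fate is taken. The type 2 cytokine genes lie together around Rad50, a DNA repair gene whose introns hold a control region for its neighbours. Ifng and the Il17 pair are known for distant enhancers that are open in the helper cells that make these cytokines, and regulatory T cells as a rule keep effector cytokines low while a subset makes IL-10. In the RefSeq gene table of the GRCm38.p6 assembly, the coding genes run Kif3a, Il4, Il13, Rad50, Il5, Irf1 on chromosome 11 and Pkhd1, Il17a, Il17f, Mcm3 on chromosome 1. Ifng stands between Iltifb and Dyrk2, and Il10 between Il19 and Mapkapk2.

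Promoter sequences were available from RefSeq, on GRCm38.p6 and not on the build of the data, and 3 are shown because each stands for a window named for its gene: the type 2, the type 1 and the type 17 cytokine. Each run covers 250 bases before and 50 after a gene's start, 5′ to 3′ on the strand of the gene, and capitals mark GGAAA or its reverse complement TTTCC, the core bound by NFAT, the factor that T cell receptor signalling sends to the nucleus.
Il4 (chr11:53618616-53618915, minus strand): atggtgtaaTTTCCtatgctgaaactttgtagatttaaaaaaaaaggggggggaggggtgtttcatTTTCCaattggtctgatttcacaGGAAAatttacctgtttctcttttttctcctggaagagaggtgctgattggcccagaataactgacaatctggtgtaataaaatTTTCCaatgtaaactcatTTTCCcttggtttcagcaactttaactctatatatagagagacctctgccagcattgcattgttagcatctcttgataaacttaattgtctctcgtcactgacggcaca
Ifng (chr10:118440796-118441095, plus strand): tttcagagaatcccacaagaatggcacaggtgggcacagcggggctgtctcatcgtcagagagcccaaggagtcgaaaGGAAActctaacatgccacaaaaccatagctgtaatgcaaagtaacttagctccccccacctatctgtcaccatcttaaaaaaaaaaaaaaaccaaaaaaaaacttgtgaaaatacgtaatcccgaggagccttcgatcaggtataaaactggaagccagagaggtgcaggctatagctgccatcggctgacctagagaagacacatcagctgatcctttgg
Il17a (chr1:20730655-20730954, plus strand): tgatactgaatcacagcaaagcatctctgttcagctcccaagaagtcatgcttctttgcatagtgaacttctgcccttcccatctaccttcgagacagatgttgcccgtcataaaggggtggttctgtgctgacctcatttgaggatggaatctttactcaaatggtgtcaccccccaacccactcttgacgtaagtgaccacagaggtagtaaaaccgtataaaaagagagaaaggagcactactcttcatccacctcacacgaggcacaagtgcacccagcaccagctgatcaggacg
The table holds 2 starts for Il4, of which the start with more of these cores is shown. The core was found 5 times in that sequence and 1 time in that of the other Il4 start, 1 time in that of Ifng and 0 times in that of Il17a, and 61.3% of the 32851 promoter sequences of this length hold it on either strand. The Il13 sequence held it 4 times and those of Il5 and Il17f 2 times each. The letters GATAA or TTATC, the core bound by GATA factors such as the type 2 regulator GATA3, were found 1 time each in the Il4 sequence shown and in that of Il13, and in none of the other Il4 start, Il5, Ifng, Il17a and Il17f, against 25.4% of all promoter sequences. No match of one core overlapped one of the other. The animals were NOD and the sequences are of C57BL/6J, and as the builds differ no match could be placed in a measured region. Il10 and Rad50 had no entry in the promoter table.

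The libraries held 19514512 to 41809276 reads, and 24.2% to 35.1% of them fell in the 84476 regions. Flicr WT replicate 1 had the lowest share and also the lowest median RPKM, 1.92, against 2.46 to 2.54 in the other libraries. RPKM counts the reads per kilobase of region and 1000000 library reads. Member regions held 1 to 810 reads in a library, with a median of 27, and 13 of the 42 had fewer than 10 reads in at least 1 library. All 42 members passed the filter on low values.

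The 4 loci differed in how much open chromatin they held. The Ifng and Il10 windows were dense in accessible regions, with 18.0 and 23.3 regions per 100 kb, while the whole set had 3.29 per 100 kb of the chromosomes' span. That span was not limited to genes, for which the windows were chosen. No set of windows matched for gene content was compared, here or in the read densities below. The Il4-Il13-Rad50-Il5 window had 4.67 per 100 kb and the Il17a-Il17f window 3.0. Regions covered 13.0% of the Ifng window, 11.01% of the Il10 window, 2.01% of the Il4-Il13-Rad50-Il5 window and 0.816% of the Il17a-Il17f window, against 1.97% overall. For loci that regulatory T cells are known to keep open, a 100-kb window on chromosome X recalled as holding Foxp3 was covered to 18.6% and one of the same size on chromosome 2 recalled as holding Il2ra, which encodes CD25, to 36.4%. These last windows were not checked against an annotation either.

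Counted as reads in regions per 1000000 library reads (RPM) and 100 kb of window, the Ifng window held 49.0 and 70.9 in WT and 73.9 and 63.7 in KO. The Il10 window held 31.6 and 40.2 in WT and 39.3 and 44.7 in KO. Far lower were the Il4-Il13-Rad50-Il5 window, with 4.17 and 5.31 in WT and 6.65 and 6.39 in KO, and the Il17a-Il17f window, with 1.23 and 2.31 in WT and 1.91 and 1.74 in KO. Over all regions the same count was 9.43 and 12.1 in WT and 13.6 and 13.2 in KO, so the Ifng and Il10 windows stood above the whole set and the other windows below it in each of the 4 libraries. The ranges of the 4 windows over the libraries did not overlap. In a bulk library, a locus open in few cells and one weakly open in all cells cannot be told apart.

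These differences were taken within libraries, on a log2 scale. The Ifng window was 5.31-fold denser in reads than the whole set (4.82-fold to 5.86-fold over the libraries) and the Il10 window 3.23-fold (2.89-fold to 3.38-fold). The whole set was 2.16-fold denser than the Il4-Il13-Rad50-Il5 window (2.05-fold to 2.28-fold) and 6.82-fold denser than the Il17a-Il17f window (5.23-fold to 7.66-fold). Ifng exceeded Il17a-Il17f by 36.2-fold and the Il4-Il13-Rad50-Il5 window by 11.5-fold, each in 4 of 4 libraries. For each of these differences the exact two-sided paired permutation test gave p = 0.125, the lowest value that 4 libraries can reach, and 0.145 after Benjamini-Hochberg adjustment over 36 comparisons, so none could pass 0.05. The Ifng window was about as dense in reads as the Foxp3 window, which held 55.9 to 63.4. It was higher in 3 of 4 libraries, with a mean ratio of 1.06 (0.821 to 1.27, exact permutation p = 0.625, adjusted 0.625). Cells of male mice hold fewer copies of chromosome X, where the Foxp3 window lies, than of the Ifng chromosome. Reads were not corrected for copy number, so this ratio does not compare openness per copy. The Il2ra window, with 115 to 130, was denser than the Ifng window in 4 of 4 libraries, by 1.92-fold.

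**Figure D1:**
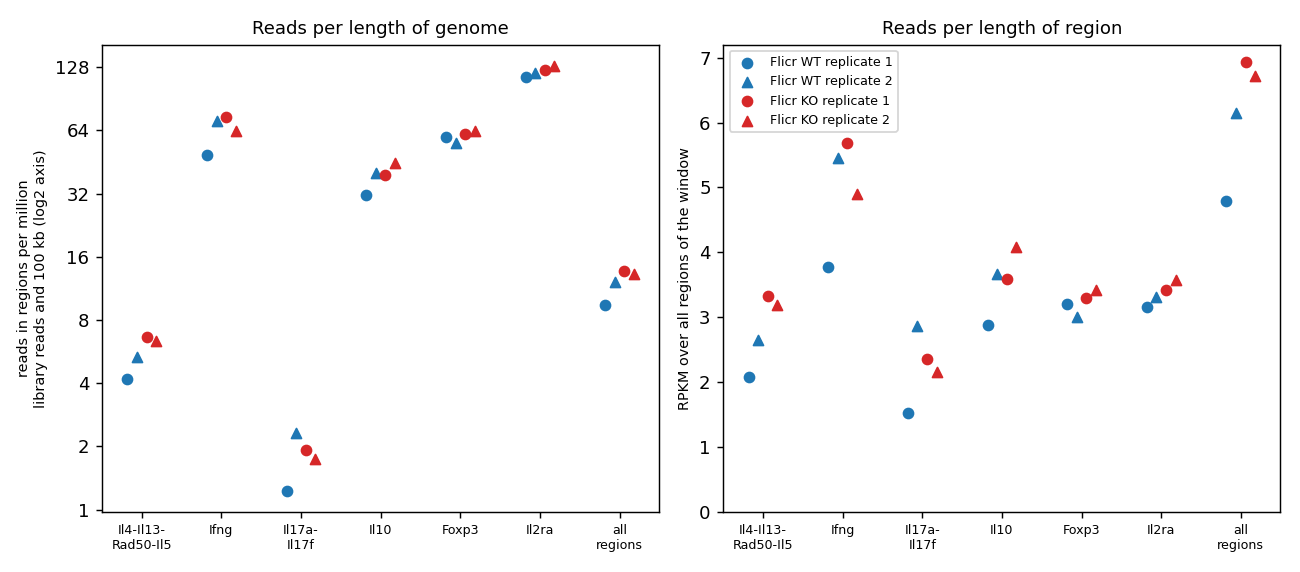
Reads in each window by library. Left, RPM in regions per 100 kb of genome on a log2 axis; right, RPKM over all regions of a window together; circles are replicate 1, triangles replicate 2, blue Flicr WT and red Flicr KO. The Ifng window lies between 49.0 and 73.9 and the Il17a-Il17f window between 1.23 and 2.31 on the left, while on the right no cytokine window reaches the level of all regions in any library.

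Measured per length of region, the windows differed less. The regions of the Ifng window together were at 3.77 and 5.45 RPKM in WT and 5.69 and 4.91 in KO, and those of the Il10 window at 2.89 and 3.66 in WT and 3.59 and 4.07 in KO. The Il4-Il13-Rad50-Il5 regions were at 2.08 and 2.65 RPKM in WT and 3.32 and 3.19 in KO, and the Il17a-Il17f regions at 1.52 and 2.86 in WT and 2.36 and 2.15 in KO. All regions of the series together were at 4.79 to 6.93 RPKM, above each cytokine window in 4 of 4 libraries, and above Ifng by 1.24-fold (1.127-fold to 1.37-fold, exact permutation p = 0.125, adjusted 0.145). Over its regions the Ifng window was higher than the Foxp3 window (3.01 to 3.41 RPKM) in 4 of 4 libraries, by 1.52-fold (1.17-fold to 1.81-fold, exact permutation p = 0.125, adjusted 0.145). Here too the values were not corrected for the fewer copies of chromosome X in male cells. The order of these windows per copy was not tested. The Il4-Il13-Rad50-Il5 and Il17a-Il17f windows were not in the same order in all libraries, with the first higher in 3 of 4.

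Against the median region the members were mixed. Of the 42, 14 lay above the library's median in all 4 libraries and 6 below it in all 4, against 34.7% and 29.1% of all regions. Above the median in every library were 8 of 18 in the Ifng window, 3 of 14 in the Il10 window, 2 of 7 in the Il4-Il13-Rad50-Il5 window and 1 of 3 in the Il17a-Il17f window. Regions over 2 times the median in all 4 libraries made up 18.4% of the series, and the windows held 5 in Ifng, 1 in Il10, and 0 in each of the other windows. The median member stood at the 60.7th percentile of mean RPKM in the Ifng window, the 62.4th in the Il4-Il13-Rad50-Il5 window, the 48.8th in the Il10 window and the 24.4th in the Il17a-Il17f window. Members were 251 to 2065 bp wide, with a median of 382 bp against 377 bp for all regions.

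**Figure D2:**
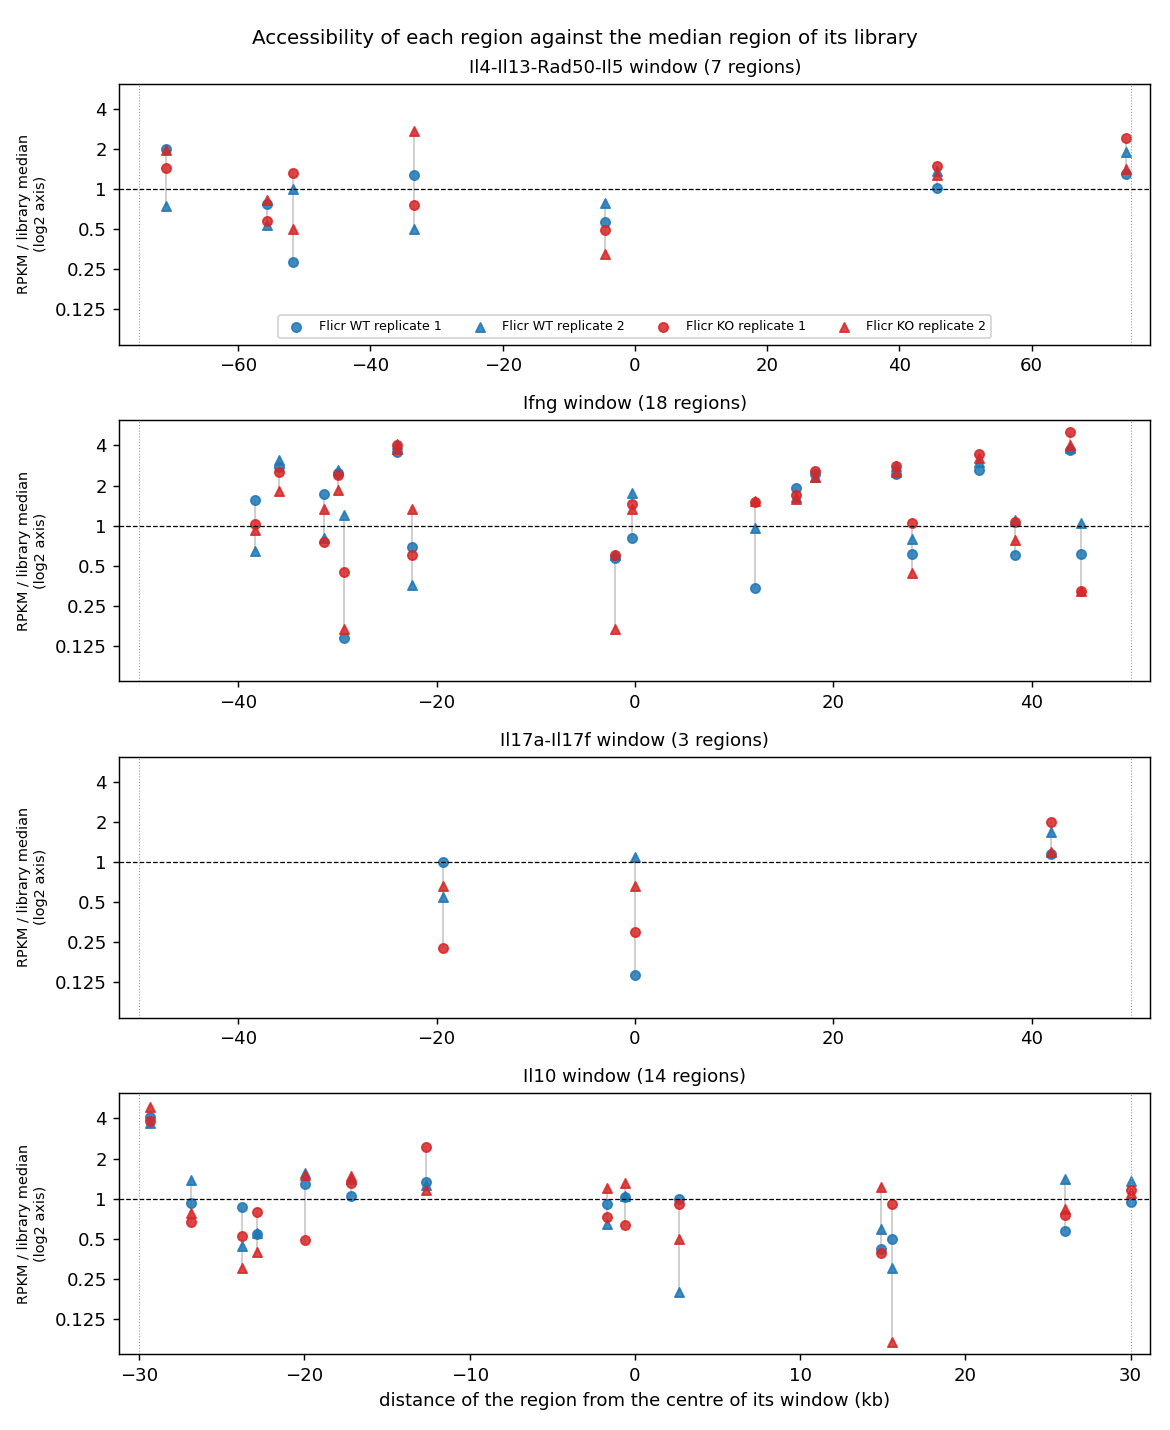
RPKM of each region divided by the median RPKM of its library (log2 axis) against the distance of the region from the centre of its window in kb, for the 4 windows; blue is Flicr WT, red Flicr KO, circles replicate 1, triangles replicate 2, and dotted lines are the window's limits. The Ifng window holds 5 regions at over 2 times the median in all libraries, with lower ones between them, the Il10 window 1 such region at its left limit, and the other windows none.

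The type 2 locus, Il4-Il13-Rad50-Il5, held fewer regions per 100 kb than the Ifng and Il10 windows, 4.67 against 18.0 and 23.3. Its median region stood at the 62.4th percentile of mean RPKM. Its 7 regions had mean RPKM from 1.27 to 4.20, were 251 to 940 bp wide, and were spaced 3694 to 49499 bp apart. The region of the highest mean, at 53549059 to 53549456, was at 2.50 and 4.66 RPKM in WT and at 6.15 and 3.49 in KO. It was above the library median in all 4 libraries, with overlapping genotypes. The widest, at 53520199 to 53521138, took 29.5% to 39.5% of the window's reads, with 1.97 and 3.35 RPKM in WT and 3.77 and 3.17 in KO. That region was also above the median in each library. The lowest, at 53470317 to 53470699, was at 1.07 and 1.94 RPKM in WT and 1.25 and 0.805 in KO, below the median in each, and relative to that median lower in both KO libraries (−0.46 after centring).

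The region of the window furthest apart between genotypes lay at 53441467 to 53441717. It was at 2.46 and 1.23 RPKM in WT (18 and 10 reads) and at 1.91 and 6.76 in KO (20 and 33 reads). Flicr KO replicate 2 alone was high, while Flicr KO replicate 1 lay between the WT libraries. The log2 difference of KO minus WT, on log2(RPKM + 1), was 0.77 (SE 0.40, 95% CI −0.03 to 1.57, limma adjusted p 0.565), and 0.60 with each library centred on its median (adjusted p 0.805). The region at 53403826 to 53404294 was at 3.80 and 1.85 RPKM in WT and 3.68 and 4.82 in KO (0.50, SE 0.34). The region at 53423212 to 53423462 was at 0.547 and 2.47 RPKM in WT and 3.35 and 1.23 in KO. The genotypes overlapped there, with means of 1.51 RPKM in WT and 2.29 in KO. The remaining region, at 53419192 to 53419517, was at 1.33 to 2.05 RPKM in the 4 libraries.

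Over the type 2 locus as a whole, KO had the higher mean in 6 of 7 regions, as deposited and after centring, but 0 of 7 passed the test. Over all tested regions KO was higher in 71.0% as deposited and in 54.6% after centring. The median log2 difference was 0.35 as deposited and 0.18 after centring, beside 0.21 and 0.04 over all 80254 regions tested. The window summed to 6.26 and 7.96 RPM in WT and 9.97 and 9.58 in KO, both KO libraries above both WT libraries (9.78 ± 0.277 against 7.11 ± 1.202, SD, n = 2 each, exact permutation p = 0.333, the lowest that 2 against 2 can reach). The order stayed per 1000000 reads in regions, where the values were 25.8 and 25.6 in WT and 28.5 and 28.2 in KO (28.3 ± 0.198 against 25.7 ± 0.156, exact permutation p = 0.333). The difference then came to 0.14 on the log2 scale, against 0.46 in RPM. Without Flicr WT replicate 1, the median log2 difference was 0.03.

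The type 1 locus, Ifng, was the most open of the 4 by reads per length of genome and of region in the comparisons above. Its regions were 251 to 2065 bp wide, spaced 300 to 20115 bp apart, with mean RPKM from 1.129 to 9.78. The most accessible by mean RPKM, at 117923691 to 117924165, was at 7.07 and 9.37 RPKM in WT and at 12.8 and 9.84 in KO. Both KO libraries were above both WT libraries, the log2 difference was 0.42 (SE 0.26, limma adjusted p 0.64), and relative to the library median the region stood at 3.69 and 3.80 times in WT and 5.04 and 3.996 times in KO. The region at 117855078 to 117856975, 1898 bp wide, carried 26.2% to 27.3% of the window's reads in each library. It was at 6.89 and 10.1 RPKM in WT and 10.2 and 9.18 in KO, with overlapping genotypes (0.19, SE 0.27). Relative to the median this region was steady, at 3.60 and 4.09 times in WT and 4.02 and 3.73 times in KO.

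The other members over 2 times the median in all libraries lay in the right part of the window. At 117914326 to 117915011, values were 4.99 and 7.39 RPKM in WT and 8.80 and 7.85 in KO, higher in both KO libraries (0.39, SE 0.28, limma adjusted p 0.68). At 117905915 to 117906696 they were 4.64 and 6.87 RPKM in WT and 7.17 and 6.17 in KO. At 117897155 to 117899219, the widest member, they were 4.67 and 5.71 RPKM in WT and 6.49 and 5.71 in KO. The lower KO library was above the higher WT library only past the digits shown. Relative to the median the genotypes overlapped in this member, at 2.44 and 2.31 times in WT and 2.55 and 2.32 times in KO. A pair of regions to the left, at 117843853 to 117844426 and 117849907 to 117850221, with a lower region between them, were also high. They were at 4.47 to 7.65 and 4.57 to 6.49 RPKM, and in both Flicr KO replicate 2 was the lowest library. Relative to the median both KO libraries were below both WT libraries in each of these, at 2.53 and 1.82 times in KO against 2.77 and 3.10 times in WT for the first, and 2.40 and 1.86 against 2.50 and 2.63 times for the second. Neither passed after centring (−0.38, limma adjusted p 0.743, and −0.24, adjusted p 0.861).

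The largest log2 difference of all 42 members was in the Ifng window, at 117891913 to 117892227, a region of 315 bp. It was at 0.654 and 2.36 RPKM in WT and at 3.81 and 3.75 in KO, on 6 and 24 reads in WT and 50 and 23 in KO. Both KO libraries were high and close together, Flicr WT replicate 1 was low, and the other WT library lay between. Counting error alone gives exact Poisson 95% intervals of 0.241 to 1.43 and 1.52 to 3.52 RPKM in WT, and of 2.84 to 5.04 and 2.39 to 5.65 in KO. The log2 difference was 1.02 (SE 0.39, 95% CI 0.24 to 1.80), with an unadjusted limma p of 0.0117 and an adjusted p of 0.451. After centring it was 0.85 (unadjusted p 0.0301, adjusted 0.651). It passed the test without Flicr WT replicate 2, at 1.53 (limma adjusted p 0.0182), a fit that leaves Flicr WT replicate 1 as the lone WT library, and was at 0.51 without Flicr WT replicate 1 (limma adjusted p 0.834). The intervals cover counting error only, and where both mates of a pair were counted they are too narrow.

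The lowest difference of the 42 members lay at the right end of the same window. At 117924662 to 117925305, values were 1.17 and 2.59 RPKM in WT and 0.818 and 0.797 in KO, so that both KO libraries were below both WT libraries (log2 difference −0.63, SE 0.47, limma adjusted p 0.698, and −0.80 after centring with adjusted p 0.698). It lies 496 bp from the region of the highest mean, whose log2 difference had the other sign. The region at 117857395 to 117857707 was at 1.32 and 0.890 RPKM in WT and 1.53 and 3.28 in KO, with no overlap as deposited and overlap relative to the median (0.66, SE 0.43, limma adjusted p 0.652).

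The remaining Ifng members overlapped between genotypes. The region at 117879049 to 117880352, 1304 bp wide, was at 1.55 RPKM in Flicr WT replicate 1 and at 3.30 to 4.33 in the other libraries. The region at 117895718 to 117896854 was among the most even members, at 3.64 to 4.34 RPKM over the 4 libraries. Low regions were uneven: that at 117850569 to 117850819 went from 0.274 to 2.96 RPKM within WT, on 2 and 24 reads, and from 0.410 to 1.15 within KO. The region at 117877823 to 117878073 was at 1.09 and 1.48 RPKM in WT and 1.53 and 0.410 in KO. The members at 117841582, 117848520, 117907741 and 117917846 averaged 1.56 to 2.63 RPKM over WT and 1.86 to 2.60 RPKM over KO.

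At the Ifng locus 0 of 18 regions passed the test, 12 had a higher mean log2 value in KO and 6 a lower one, and 9 and 9 after centring, beside the 71.0% and 54.6% of all regions that were higher in KO. The median log2 difference was 0.16 as deposited and −0.01 after centring. The window summed to 49.0 and 70.9 RPM in WT and 73.9 and 63.7 in KO (59.9 ± 15.5 against 68.8 ± 7.18, SD, n = 2 each, exact permutation p = 0.667). Per 1000000 reads in regions they were 202 and 228 in WT and 211 and 187 in KO (215 ± 18.4 against 199 ± 16.6, exact permutation p = 0.667), so the order of the genotype means turned with the scaling. Flicr WT replicate 1 was the lowest library by RPM and Flicr KO replicate 2 the lowest by reads in regions, and the median difference was −0.05 without Flicr WT replicate 1 and 0.39 without Flicr WT replicate 2.

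The type 17 locus, Il17a-Il17f, held little open chromatin. Its 3 regions were 251 to 314 bp wide and together held 34 to 80 reads in a library. The region at 20791836 to 20792149 took 52.9% to 82.5% of them and was at 2.19 and 4.14 RPKM in WT and 5.04 and 2.95 in KO. It was above the median of each library, and the genotypes overlapped (log2 difference 0.27, SE 0.35, limma adjusted p 0.833). The region at 20730546 to 20730796 was at 1.92 and 1.36 RPKM in WT and 0.574 and 1.64 in KO, on 6 to 14 reads (−0.36, SE 0.46). That at 20749874 to 20750124 was at 0.274 and 2.72 RPKM in WT and 0.765 and 1.64 in KO, on 2 and 22 reads in WT and 8 in each KO library (−0.01, SE 0.52). In the last of these, the WT libraries alone spanned a wider range than the KO libraries, which lay inside it.

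No Il17a-Il17f region passed (0 of 3), and at this depth the 95% interval of the log2 difference ran from −1.29 to 0.56 for the region at 20730546 and from −1.05 to 1.03 for that at 20749874. The median log2 difference was −0.01 as deposited and −0.18 after centring, and 0.62 without Flicr WT replicate 2. The window summed to 1.23 and 2.31 RPM in WT and 1.91 and 1.74 in KO (1.77 ± 0.765 against 1.83 ± 0.121, SD, n = 2 each, exact permutation p = 1.0). Per 1000000 reads in regions they were 5.08 and 7.44 in WT and 5.46 and 5.12 in KO (exact permutation p = 1.0). Outside the window, 9658 bp past its right limit, stood a far more accessible region, at 20809658 to 20810930 with a mean of 34.6 RPKM, and the nearest on the left was 195889 bp away.

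At the Il10 locus 1 region carried about as many reads as all others together. That region, at 132890042 to 132891268, was at 7.87 and 9.16 RPKM in WT and at 9.75 and 11.9 in KO, 3.71 to 4.84 times the library median. Both KO libraries were above both WT libraries as deposited (log2 difference 0.31, SE 0.26, limma adjusted p 0.73), and relative to the median the genotypes overlapped (0.14 after centring). It took 46.6% to 54.5% of the window's reads and begins 42 bp inside the left limit of the window. Without it the window was at 1.74 to 2.40 RPKM in place of 2.89 to 4.07, and its density at 15.6 to 21.4 RPM per 100 kb in place of 31.6 to 44.7. The next region to the left of the limit, at 132888740 to 132888990, had a mean of 0.886 RPKM. At the right limit the region at 132949808 to 132950187, which crosses it, had a mean of 2.70 RPKM, and the next region outside, 6825 bp away, a mean of 2.72.

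The other 13 Il10 regions had means from 1.05 to 3.69 RPKM. The region at 132907172 to 132907548 was at 2.55 and 3.12 RPKM in WT and 6.23 and 2.86 in KO. Flicr KO replicate 1 alone was high, and the log2 difference was 0.47 (SE 0.34, limma adjusted p 0.693, and 0.30 after centring). In the region at 132899663 to 132900353 the same library alone was low, with 2.48 and 3.85 RPKM in WT and 1.25 and 3.71 in KO (−0.33, SE 0.38). The region at 132902627 to 132903018 was at 2.01 and 3.47 RPKM in WT and 3.30 and 3.67 in KO, above the library median in all 4 libraries. The region at 132892854 to 132893390 was at 1.79 and 3.40 RPKM in WT and 1.70 and 1.91 in KO, and relative to the median both KO libraries lay below both WT libraries (−0.49 after centring, limma adjusted p 0.776).

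Near the middle of the Il10 window, the regions at 132918136 and 132919209 were at 1.58 to 2.96 and 1.62 to 3.20 RPKM over the 4 libraries. The first of these had both KO libraries above both WT libraries as deposited, at 1.84 and 2.96 against 1.75 and 1.58 RPKM. The region at 132934742 to 132935081 was at 0.807 and 1.46 RPKM in WT and 0.988 and 3.02 in KO (0.42, SE 0.45), with Flicr KO replicate 2 alone above the median. Its neighbour at 132935408 to 132935658 was the lowest member of all by mean, at 0.958 and 0.740 RPKM in WT and 2.30 and 0.205 in KO, the last on 1 read, the fewest of any member. No region of the series had fewer than 1 read in any library, so this value may be a floor of the deposited values, which was not tested. Low members such as these 2 adjacent regions differed within KO in opposite directions, replicate 1 lower in the first and higher in the second. The regions at 132895886 and 132896883 were below the median in every library, at 0.748 to 1.65 and 0.978 to 2.01 RPKM, and those at 132922526 and 132945925 spanned 0.494 to 2.30 and 1.09 to 3.46 RPKM with overlapping genotypes.

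Over the Il10 locus 0 of 14 regions passed the test, and KO was higher in 10 and lower in 4, or higher in 6 and lower in 8 after centring, again beside 71.0% and 54.6% of all regions higher in KO. The median log2 difference was 0.14 as deposited and −0.03 after centring, and it was 0.03 without Flicr WT replicate 1 and 0.27 without Flicr WT replicate 2. The window summed to 19.0 and 24.1 RPM in WT and 23.6 and 26.8 in KO (21.5 ± 3.61 against 25.2 ± 2.26, SD, n = 2 each, exact permutation p = 0.667). Per 1000000 reads in regions they were 78.3 and 77.5 in WT and 67.3 and 78.8 in KO (77.9 ± 0.575 against 73.1 ± 8.10, exact permutation p = 1.0). The WT libraries nearly coincided on that scale and the KO libraries lay on either side of them.

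Across the 42 members, limma called 0 higher and 0 lower in KO, where it called 0.0187% of all tested regions higher and 0 lower. At an unadjusted p under 0.05 there was 1 member, the Ifng region at 117891913, against 9.06% of all regions, and after centring the same 1 against 7.40%. In 7 members the KO pair lay wholly above the WT pair and in 1 wholly below it, against 32.3% and 8.10% of all regions. Relative to the library median, 3 members lay above and 5 below, against 23.0% and 13.9%. Of the members, 29 had a log2 difference above 0 and 13 below, and 22 and 20 after centring, against 71.0% and 54.6% of all regions above 0, and the median difference was 0.19 as deposited and 0.02 after centring, close to the 0.21 and 0.04 of all regions.

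The spread between libraries was set out for the median member. A difference between means of 2 libraries is smaller than one between single libraries by averaging alone, so these values are not ranked. The median absolute difference on log2(RPKM + 1) was 0.49 between the WT libraries, 0.38 between the KO libraries and 0.29 between the genotype means, and after centring 0.36, 0.38 and 0.20. Over all tested regions the same medians were 0.40, 0.31 and 0.31, and after centring 0.32, 0.31 and 0.25. The median 95% interval of a member reached 0.78 to either side of its log2 difference, so that differences of that size at a single region were within error.

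**Figure D3:**
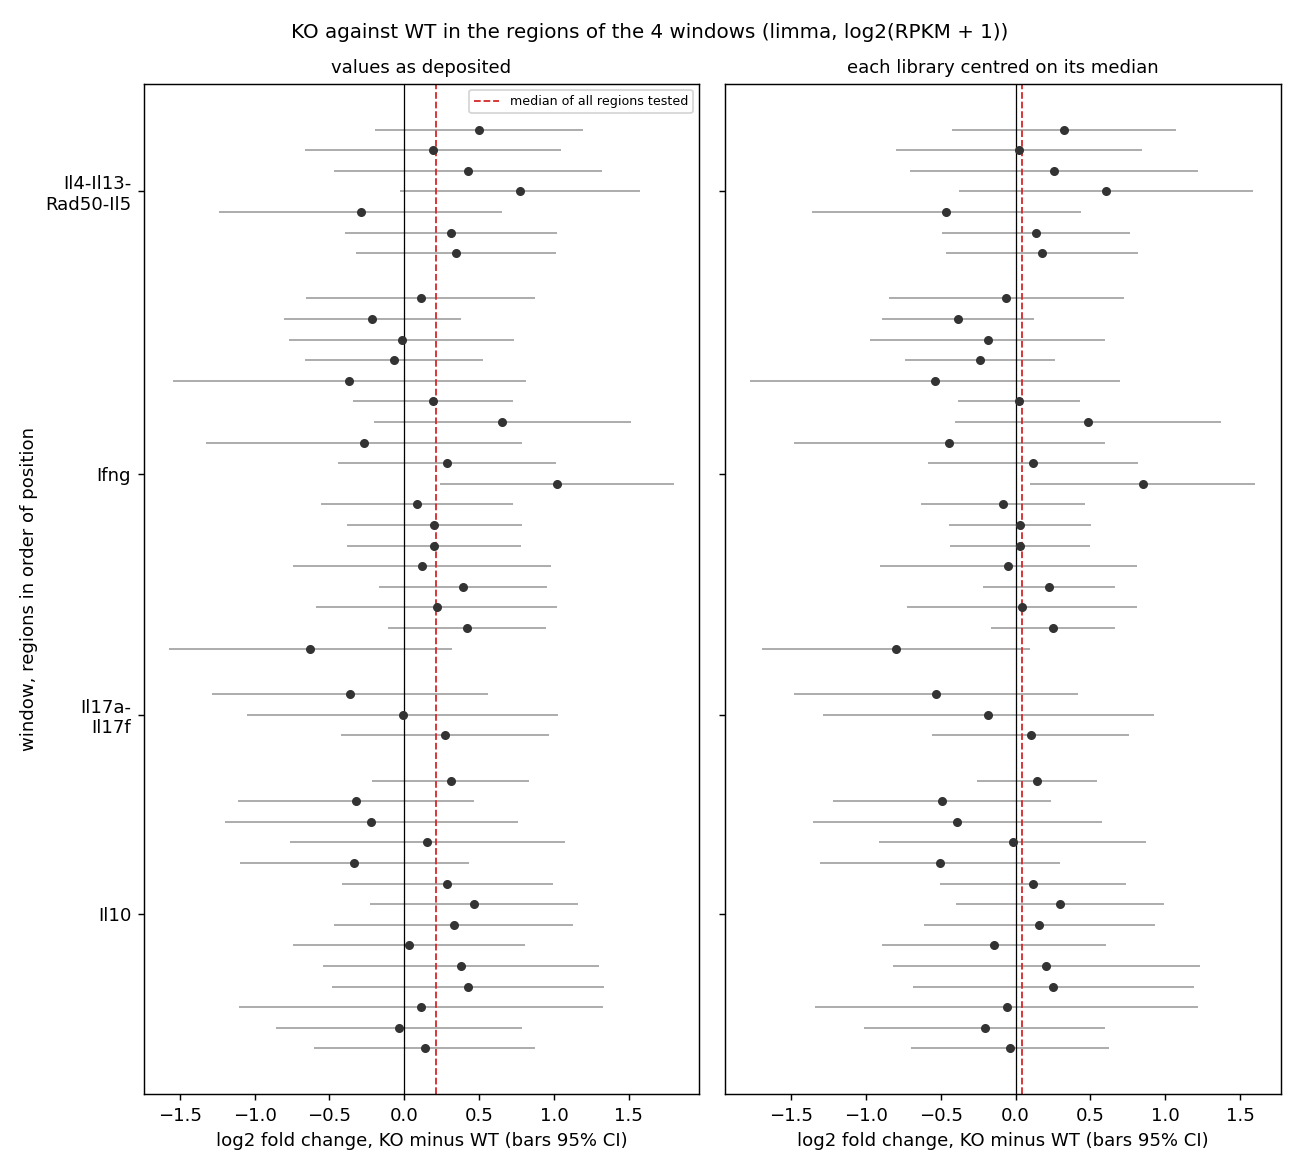
Log2 difference of KO minus WT on log2(RPKM + 1) with 95% confidence intervals from limma, for the 42 regions of the 4 windows in order of position, from values as deposited (left) and with each library centred on its median (right); the dashed line is the median of all regions tested, 0.21 and 0.04. All intervals but that of the Ifng region at 117891913 include 0 on both sides.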

How the data were processed

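Chromatin accessibility was measured by ATAC-seq on 50000 sorted cells per library, paired-end with a 75-bp kit, in 2 Flicr KO and 2 Flicr WT libraries, grouped by the genotype in the labels. The labels describe the sort as double and the series text as single. The authors deposited RPKM values for 1 shared list of regions, per the file headers, with no further scaling between libraries stated. Per the submitters' processing notes the build was mm9 and the tools were DiffBind, HOMER 4.6, SAMtools, Picard 1.130 and Bowtie2, with no roles given. Handling of duplicates and of the transposase offset is not given in the sources used here. RPKM times region length came to whole multiples of 1 step for 100% of values (tolerance 0.001), which gave reads per region and library totals; even read numbers made up 78.8% to 85.5%, as when mates are counted separately. A larger share of reads in regions raises all RPKM of a library, so values were also centred on each library's median.

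Positions are 1-based on mm9. The test was limma 3.58.1 (R 4.3.3, trend and robust options) on log2(RPKM + 1) over all regions with a mean RPKM of at least 1.01, the 5th percentile (80254 tested, 4222 left out), with Benjamini-Hochberg adjustment and a threshold of 0.05. Differences on this scale understate the change of low regions. The fit was tested on simulated data. Window sums were compared with exact permutation tests (scipy 1.17.1), and tables and plots were made with Python 3.11.15, numpy 2.4.6, pandas 2.3.3 and matplotlib 3.10.9. Regions named were all those of windows with 8 or fewer, and otherwise the 3 of highest mean, the 3 of smallest p and the extremes after centring, 21 in all; other members were named after their values were seen. The windows and members were chosen with earlier results of these data known. Alternatives covered scaling, pseudocount, filter, test, replicate block and leaving out each library.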

Additional observations from a re-analysis of the deposited data

How the results depend on the processing

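No window gained or lost a call in any of the 16 alternative fits, except that 1 Ifng region, at 117891913, was called without Flicr WT replicate 2 (0 to 1 over the fits leaving out a library); in each such fit the lone library is assumed to vary like the others. Limma voom on recovered reads, scaled to library reads or to reads in regions and chosen after seeing the data, called 0 in each window. The median log2 difference of the Il4-Il13-Rad50-Il5 window, 0.35, was 0.18 with median centring (also with a replicate block), 0.091 with total scaling, 0.11 with quantile normalization, 0.16 and 0.41 with pseudocounts of 5 and 0.25, 0.39 with the filter at the 25th percentile, 0.52 and 0.19 with voom by library reads and by reads in regions, and 0.035 to 0.46 leaving out a library. That of the Ifng window, 0.16, was −0.014 with median centring (also with a replicate block), −0.093 with total scaling, −0.083 with quantile normalization, 0.070 with a pseudocount of 5, 0.24 and −0.076 with voom, and −0.047 to 0.39 leaving out a library. That of the Il17a-Il17f window was −0.68 with voom by reads in regions and −0.30 to 0.62 leaving out a library. The log2 ratio of summed reads, 0.46, 0.20 and 0.23 in the Il4-Il13-Rad50-Il5, Ifng and Il10 windows, was 0.14, −0.11 and −0.092 per 1000000 reads in regions, and leaving out a library it was 0.30 to 0.64 for Il4-Il13-Rad50-Il5, −0.042 to 0.49 for Ifng, −0.34 to 0.57 for Il17a-Il17f and 0.065 to 0.41 for Il10, whose median log2 difference of 0.14 was 0.027 to 0.27. Scaling to regions removes a common shift by construction; the cause of the other changes was not tested. Same-numbered libraries did not deviate together (correlation 0.0031 across regions), and with the replicate block 0 regions were called in each window; in this balanced design the block cannot move the fitted differences, so the medians are 0.35, 0.16, −0.011 and 0.14 by construction. Of 332 differences of named regions over the alternatives, 311 kept their direction and 21 changed sign, none of these called. The 3 count models that had been planned were not run, because the deposited unit is RPKM. Members with fewer than 10 reads in a library are limited by depth.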
